A study of Mus musculus with 12 samples.

Results

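The RNA molecules described here were 132 noncoding transcripts whose level in the mouse cecum moved furthest from sham after a surface burn. They were chosen on the arrays themselves. A transcript entered when its probe carried a RefSeq noncoding accession, stood well above background on each of the 3 arrays in at least 1 group, and had a mean at 3, 12 or 72 h that lay 1.5 or more from the sham mean on the log2 scale. Where a gene had several such probes, the brightest was taken. The array held 2269 noncoding genes on 2477 probes, among 37074 gene or transcript names in all. Of these noncoding genes, 957 passed the background filter in at least 1 group, and 132 of the 957 (13.8%) met the difference. The other 1312 noncoding genes were not above background in this sense, and 71 of them lay 1.5 or more from sham. Because the distance from sham chose the transcripts, that distance is given below as a description and is not tested.

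Cecum tissue of C57BL/6 mice labelled male was taken at the time of a sham operation, or 3, 12 or 72 h from cecal cauterization. The cautery used bipolar forceps, and adhesions form in the abdominal cavity after this injury. Each of the 4 groups held 3 arrays, described as biological triplicates, and the age of the animals was not given in the sources used here. The tissue was whole cecum, so its RNA comes from epithelium, muscle, serosa and the cells that enter after injury, and fewer cells of a type cannot be told apart from less RNA per cell. The sham, 3 h and first 2 of the 12 h arrays lay on slide 1, whereas the third 12 h array and the 72 h arrays lay on slide 2. Against the label, Xist was well above background on 12 of 12 arrays, and the Y-linked genes Ddx3y and Eif2s3y were on 0. Of other Y-linked genes, 1 of 6 Kdm5d probes was above background on 12 arrays, and 1 of 3 Uty probes on 1.

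Noncoding RNAs act without being translated. Small structured ones are the cores of machines that splice, process and move other RNAs and proteins, and most of these are made by RNA polymerase III or kept without a long poly(A) tail. Long noncoding RNAs (lncRNAs) resemble messenger RNAs in their making, are often restricted to 1 tissue or cell type, and can act on neighbouring genes, on proteins of the nucleus, or as the source of microRNAs cut from their introns and exons. In the gut wall they are known for marking smooth muscle, mesenchyme and cells of the immune system.

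The probes of 8 transcripts on which the account turns are shown first, since each value below is the fluorescence of one such 60-base oligo. Gm10872 and F630028O10Rik stand for the transcripts that were raised by 3 h and stayed high. Rn7sk and Rpph1 stand for the small RNAs raised at 3 h, H19 and U90926 for the late ones, and Fendrr and 9230105E05Rik for those that were lower. Coordinates are those of the mouse build mm9 in the scanner output, and the exon or intron hit by a probe was not assigned here.
Gm10872, chr15:76097239-76097298, minus strand: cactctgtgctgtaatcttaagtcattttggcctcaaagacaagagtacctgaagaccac
F630028O10Rik, chrX:93438848-93438907, plus strand: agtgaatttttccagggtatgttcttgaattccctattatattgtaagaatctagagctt
Rn7sk, chr9:78023109-78023168, minus strand: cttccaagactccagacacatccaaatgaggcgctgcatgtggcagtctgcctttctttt
Rpph1, chr14:51427130-51427189, minus strand: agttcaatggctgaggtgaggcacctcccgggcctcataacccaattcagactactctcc
H19, chr7:149761492-149761551, minus strand: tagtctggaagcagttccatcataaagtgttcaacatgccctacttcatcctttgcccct
U90926, chr5:92641050-92641819, minus strand: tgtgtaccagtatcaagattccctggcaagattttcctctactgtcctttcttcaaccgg
Fendrr, chr8:123582712-123582771, minus strand: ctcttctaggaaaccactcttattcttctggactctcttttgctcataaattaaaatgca
9230105E05Rik, chr10:119829768-119829827, plus strand: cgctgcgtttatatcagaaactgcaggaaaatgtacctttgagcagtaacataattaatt

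The U90926 interval is longer than its probe. Among all 132 probes, the most alike pair (4930597A21Rik and Gm13546) shared 32 of 60 bases in an ungapped alignment, so no 2 transcripts were read by near-identical oligos. A probe can still meet RNA of a parent gene or a family member that is not among the 132.

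Mature microRNAs were found within 7 of the transcripts, by their RefSeq gene spans in GRCm38.p6 and on the same strand where the strand was given. F630028O10Rik spans the miR-223 hairpin, the microRNA of the granulocyte lineage. H19 holds miR-675 (its strand was not compared), and the annotation used listed 2 hairpins within Dnm3os and 1 within Dleu2. The mature forms are shown 5′ to 3′ with the seed, bases 2 to 8, in capitals.
mmu-miR-223-3p: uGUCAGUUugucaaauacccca
mmu-miR-223-5p: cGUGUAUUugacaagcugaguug
mmu-miR-675-3p: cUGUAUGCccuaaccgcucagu
mmu-miR-675-5p: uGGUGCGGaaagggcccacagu
mmu-miR-199a-3p: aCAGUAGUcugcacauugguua
mmu-miR-199a-5p: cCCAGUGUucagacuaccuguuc
mmu-miR-214-3p: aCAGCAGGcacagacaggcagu
mmu-miR-214-5p: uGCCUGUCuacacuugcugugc
mmu-miR-16-5p: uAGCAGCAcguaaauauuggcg
mmu-miR-453: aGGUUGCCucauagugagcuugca
mmu-miR-496a-5p: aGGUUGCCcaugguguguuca

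The same annotation listed 3 hairpins within Rian, 10 within Mirg and 1 within Ppp1r12b. For these 7 hosts together it listed 19 hairpins and 36 mature forms with 35 different seeds. It may lack other hairpins of these hosts, so the counts hold only for the forms listed. Among those, the one seed carried by a pair of forms, GGUUGCC, belonged to miR-453 and miR-496a-5p, both within Mirg. Of these 7 hosts, 6 were higher than sham and Ppp1r12b was lower. Mir143hg, a microRNA host by its name that was also lower than sham, is not among the 7. The microRNAs themselves were not measured.

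Values below are log2 fluorescence minus the 75th percentile of each array's non-control spots, so 0 is a bright spot at that percentile and -8 is near the floor of the scanner. Of the transcripts, 66 were higher than sham at the time of their largest difference and 66 were lower, and 0 were 1.5 higher at one time and 1.5 lower at another. The rises reached further than the falls. Their largest differences ran from 1.52 to 8.45 with a median of 2.47, and 17 transcripts passed 3. The falls ran from 1.51 to 3.43 with a median of 1.98, and 6 passed 3. A fall ends at background, and 19 of the 66 higher transcripts were above background on 0 sham arrays. The part of the scale in this asymmetry was not tested.

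**Figure D1:**
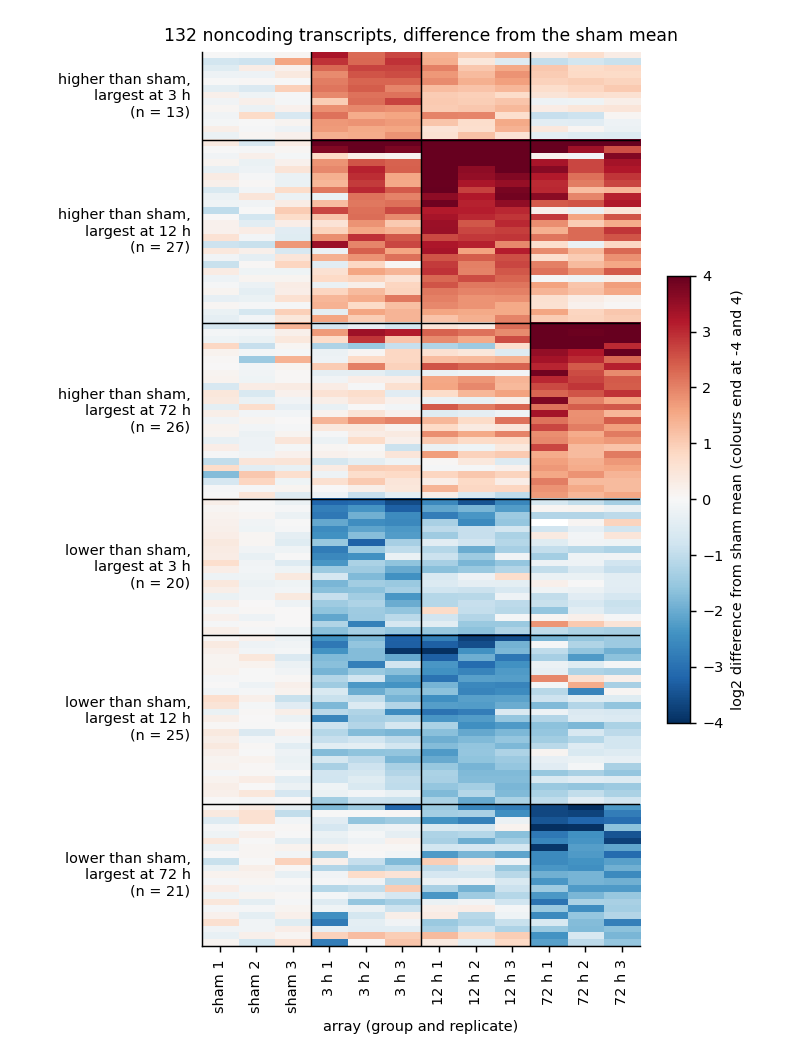
Each row is 1 of the 132 noncoding transcripts and each column 1 of the 12 arrays, coloured by the log2 difference from the transcript's sham mean (red higher, blue lower, colours ending at -4 and 4). Rows are grouped by direction and by the time of the largest difference, which holds 13, 27 and 26 higher and 20, 25 and 21 lower transcripts at 3, 12 and 72 h, and the 3 arrays of a group mostly share their colour.

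At 3 h, 30 transcripts lay 1.5 or more above sham and 32 below it. At 12 h these numbers were 38 and 36, and at 72 h they were 41 and 27. A rise seen at all 3 times was more frequent than such a fall, with 12 transcripts against 4. Single times were frequent in both directions, since 18 transcripts were raised at 72 h alone and 15 were lowered at 3 h alone.

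**Figure D2:**
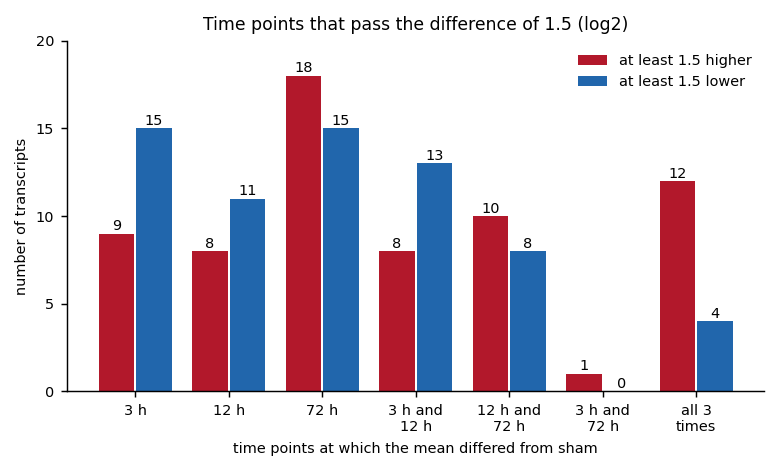
Bars give the number of transcripts (y axis) whose mean lay at least 1.5 (log2) above (red) or below (blue) the sham mean at exactly the time points named on the x axis. The tallest bar is the 18 transcripts raised at 72 h alone, and 12 were raised against 4 lowered at all 3 times.

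Calls were made at more than 2-fold in either direction with an adjusted p under 0.05 (limma, Benjamini-Hochberg over 56605 probes). By this measure 35 transcripts were called higher and 35 lower at 3 h, where 2.84% and 4.61% of all probes were called. At 12 h, 45 and 43 were called, where 3.71% and 5.46% of all probes were, and at 72 h 43 and 30, where 4.08% and 4.25% were. Since the difference from sham chose the transcripts, these shares were set by the choice. A call at one or more times was made for 125 of the 132, and 26 were called at all 3. With the slide as a block, the 72 h count fell from 73 to 18.

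The transcripts just inside the difference of 1.5 were Ppp1r12b (-1.51 at 3 h), 5930403L14Rik (-1.51 at 12 h) and Gm5039 (1.52 at 12 h). Just outside were Gm15694 (1.49 at 3 h), Gm12596 (-1.49) and Cyp2d13 (-1.48 at 72 h). The selected transcripts were dim. Their highest group mean had a median of -3.03, against -2.47 in the 825 other detected noncoding genes, and it lay above the 75th percentile in 22 of 132. For this reason background handling weighed heavily. When background was modelled with normexp and an offset of 50, which draws low values together, 20 of the 132 still lay 1.5 from sham, 128 kept their sign at their largest difference, and the median size of that difference went from 2.17 to 0.61. The 20 were Gm10872, F630028O10Rik, 5830416P10Rik, 9030619P08Rik, Gm8884, Marcksl1-ps4, Mcpt-ps1, Gm14296, Gm15987, Hmga2-ps1, H19, Rian, Bmp1, Rn7sk, Rn7s1 and Rpph1 among the higher, and 1700003I22Rik, Gm8221, Fendrr and Mir143hg among the lower.

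By RefSeq biotype, 108 of the transcripts were lncRNAs, 14 were pseudogenes (13 of them listed as transcribed), 7 were noncoding variants of protein-coding genes, and 3 were small RNAs of the classes scRNA, snRNA and RNase P RNA. Of all detected noncoding genes, 708 were lncRNAs and 147 transcribed pseudogenes. The scanner names were matched to RefSeq through the accession in 130 cases and the symbol in 2. Older names on the array included Gm10872, now Mirt2; 5830416P10Rik, now Mirt1; Gm14005, now Morrbid; 5330426P16Rik, now Dubr; and Mir143hg, now Carmn. Of the 132, 59 were above background on all 12 arrays, and 19 of the 66 higher ones were not above background on any sham array.

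Several transcripts known from immune cells rose by 3 h or 12 h and were still called higher at 72 h, although with the slide as a block Mirt1 (1.39) and Morrbid (1.37) were not called then. The largest difference of the whole set belonged to Gm10872 (Mirt2), a lncRNA induced in macrophages by bacterial endotoxin. Its sham arrays read -6.86, -7.88 and -6.94, none of them well above background. At 3 h its arrays read -0.71, 0.63 and -0.30, at 12 h 1.52, 1.13 and 1.0, and at 72 h 1.01, 0.26 and 1.63. All 9 injured arrays thus lay far above all sham arrays, at least 42.6-fold at 3 h, at least 108-fold at 12 h and at least 90.9-fold at 72 h. These bounds set the mean of the bright group against the lowest signal that counts as well above background on each dim array.

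F630028O10Rik, the transcript over the miR-223 hairpin, was above background on every array. It read -1.91, -2.27 and -1.83 in sham, -0.19, 0.51 and 0.35 at 3 h, and 2.77, 1.97 and 2.05 at 12 h. Its 72 h arrays read 1.28, 0.68 and 1.33. No array of one group overlapped another group, and the order was sham, 3 h, 72 h and 12 h from low to high. The difference from sham was 2.23 ± 0.27 (SE, n = 3 against 3 arrays, here and below), then 4.27 ± 0.27 and 3.10 ± 0.27.

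5830416P10Rik (Mirt1), described like Mirt2 in the injured heart, read -1.47, -2.06 and -1.39 in sham and 1.79, 0.83 and 1.38 at 12 h. At 3 h it read -1.09, 0.16 and -0.59, and at 72 h 0.22, -0.61 and -0.16. All 9 injured arrays lay above the sham arrays, and the 3 h and 72 h arrays overlapped each other. Other probes of this gene, AK146072 and AK017935, differed from sham by 2.37 and 2.77 at 12 h, beside 2.97 for the chosen probe.

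Gm14005 (Morrbid), a lncRNA that controls the lifespan of short-lived myeloid cells, read -2.08, -2.57 and -1.92 in sham and -0.09, -0.21 and -0.17 at 12 h. Its 3 h arrays read -1.34, -0.91 and -1.30 and its 72 h arrays -0.82, -1.01 and -0.66. All injured arrays again lay above all sham arrays, and the 12 h arrays above those of the other 2 times. A second noncoding probe of the gene, for another variant, differed from sham by 0.96, 2.29 and 2.17. The chosen probe differed by 1.01 ± 0.18, 2.03 ± 0.18 and 1.36 ± 0.18.

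Several uncharacterised transcripts were dark in sham and lit at 12 h. 4933432I03Rik read -7.89, -7.91 and -7.80 in sham and -2.02, -3.38 and -2.69 at 12 h, at least 7.18-fold higher. It had reached -4.15, -2.77 and -4.11 by 3 h. AU019990 went from -7.89, -7.81 and -7.07 to -3.59, -4.0 and -3.10, at least 3.93-fold. In both, every 3 h, 12 h and 72 h array lay above every sham array. Gm8884, which is bright enough to be measured in sham (-1.38, -1.75 and -1.95), read 2.35, 1.83 and 2.01 at 12 h, a difference of 3.76 ± 0.39.

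4933412O06Rik was raised at 12 h and hardly otherwise. Its 12 h arrays read -2.62, -3.48 and -3.54, whereas sham read -7.80, -7.45 and -7.75 and 3 h read -6.86, -7.44 and -7.55. At 72 h, 1 array read -3.97 and the other 2 read -7.52 and -7.80. 9030619P08Rik, a transcribed pseudogene, read 2.53, 2.07 and 2.51 at 3 h and 3.05, 3.03 and 2.88 at 12 h. Its sham arrays spread widely, at -1.14, -0.14 and 0.90, and the 72 h arrays (0.09, -0.35 and 0.35) lay within that spread. The list of immune and inflammation lncRNAs held 19 genes that the array measured. Of these, 3, 3 and 4 were called higher at 3, 12 and 72 h and 0 lower, with medians of 0.22, 0.37 and 0.12, while the medians over all probes were 0.04, -0.05 and -0.16. Those called that are among the selected transcripts were Gm10872, Gm14005, U90926 and 5330426P16Rik, and the one not selected was Gm13889 at 3 h.

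**Figure D3:**
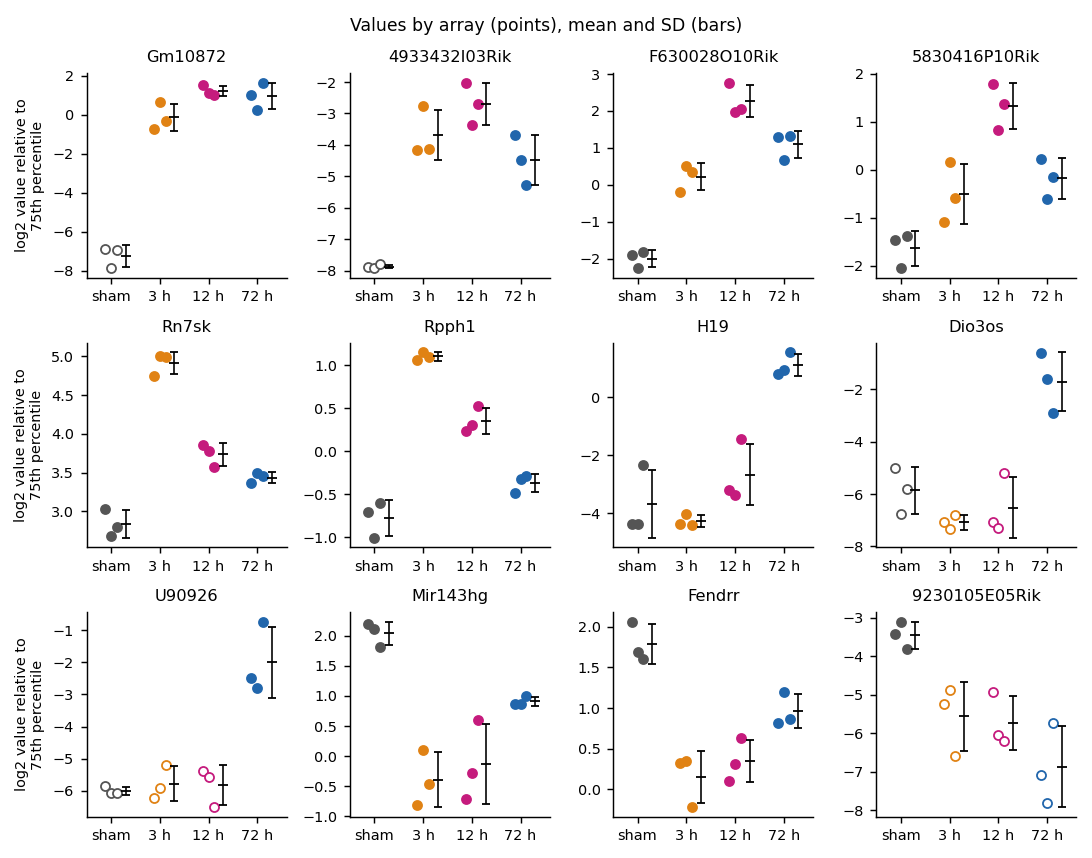
Each panel shows 1 transcript, with the log2 value relative to the array's 75th percentile (y axis) of each array (points) in the sham, 3 h, 12 h and 72 h groups, and the mean and SD of the 3 arrays (bars). Open points mark groups in which fewer than 3 arrays were well above background. The upper row holds transcripts whose arrays lay above sham from 3 h on, the middle row 2 small RNAs highest at 3 h and 2 late transcripts, and the lower row 1 late transcript and 3 that were lower than sham.

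Among the lists of immune cell markers, only that of neutrophils summed above all sham arrays from 3 h on. The summed level of 10 neutrophil markers (each as a multiple of the 75th percentile) was 56.6 to 64.8 on the sham arrays, 246 to 414 at 3 h, 563 to 587 at 12 h and 241 to 438 at 72 h, and Cxcr2 and Ngp were not above background on any sham array. That of 8 macrophage markers was 77.1 to 92.3 in sham, 64.7 to 157 at 3 h, 120 to 139 at 12 h and 255 to 271 at 72 h. Of these lists, 7, 8 and 6 neutrophil markers and 0, 2 and 7 macrophage markers were called higher at 3, 12 and 72 h. The sum of 8 T and B cell markers was 8.15 to 13.1 in sham and 3.54 to 15.3 on the injured arrays, and 0 of them were called. The part of these cells in the rise of any transcript was not tested.

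Small structured RNAs formed a second early group. Rn7sk (7SK), which holds the elongation factor P-TEFb in an inactive complex, read 3.03, 2.68 and 2.80 in sham and 4.75, 5.0 and 4.99 at 3 h. It was lower again at 12 h (3.86, 3.78 and 3.57) and at 72 h (3.36, 3.50 and 3.45). The 4 groups did not overlap, and its difference from sham went from 2.08 ± 0.13 at 3 h to 0.90 and 0.60.

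Rpph1, the RNA of RNase P that trims the 5′ end of transfer RNAs, followed the same order. It read -0.71, -1.01 and -0.61 in sham, 1.06, 1.15 and 1.1 at 3 h, and 0.23, 0.31 and 0.52 at 12 h. By 72 h it read -0.48, -0.33 and -0.29. Again no group overlapped another. Rn7s1 (7SL), the RNA of the signal recognition particle, went from 3.09, 2.80 and 2.65 to 4.56, 4.35 and 4.43 at 3 h. At 72 h it read 3.28, 2.91 and 2.62, on both sides of the sham values.

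Vaultrc5, a component of the vault particle that RefSeq lists as a lncRNA, had the largest difference of the small RNAs. Its sham arrays read -3.86, -3.95 and -3.77 and its 3 h arrays -0.59, -1.58 and -1.18, a difference of 2.74 ± 0.23. At 12 h the difference was 1.24 and at 72 h 0.43.

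These 4 were the selected ones of 30 structured RNAs that were detected, all small but for the ribosomal RNA Rn28s1. The grouping was made once their values had been seen. Of the 9 RNAs of RNase P, RNase MRP or other products of RNA polymerase III, 8 were called higher at 3 h, with differences from 1.25 to 2.74, and the 4.5S RNA Rn4.5s was not (0.12). Of 5 spliceosomal RNAs, the 3 U1 genes were called at 3 h (1.41 to 1.48), and Rnu2-10 (0.65) and Rnu12 (0.33) were not. U1 copies are near-identical, so these 3 are 1 measurement rather than 3, and likewise Rpph1 and the Rprl copies may share signal. None of 14 snoRNAs and scaRNAs was called, with a median of 0.26 at 3 h. At 12 h, 2 of the 30 were called higher, Rpph1 and Vaultrc5, and at 72 h 0 were. The labelling kit primes amplification on poly(A), which most of these RNAs lack, so their fluorescence may depend on more than their amount, and this was not tested.

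**Figure D4:**
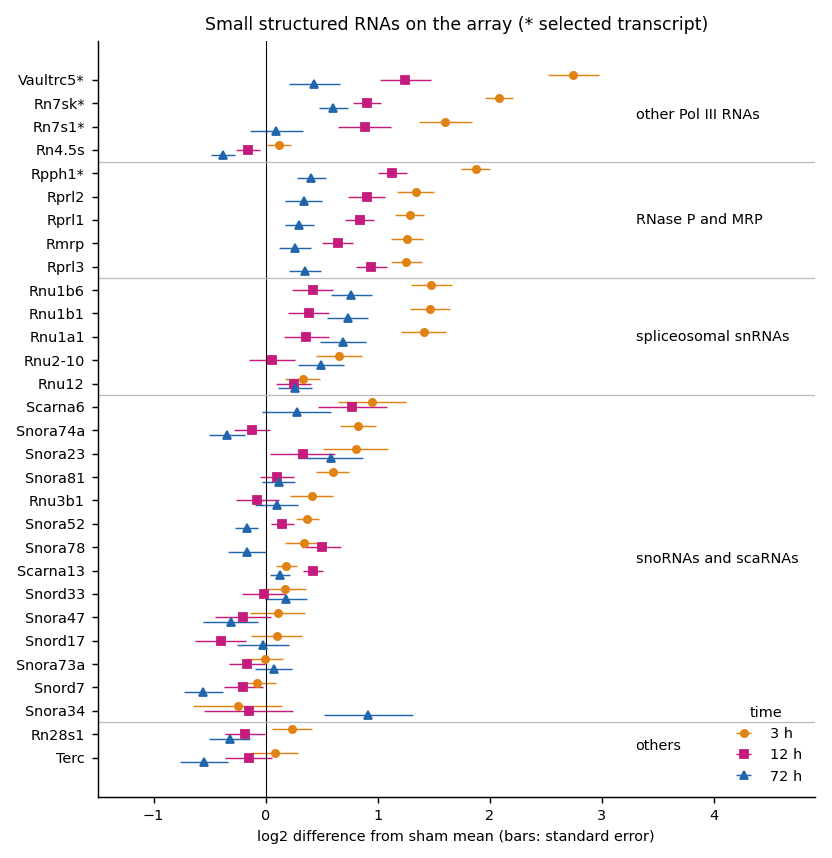
Points give the log2 difference from the sham mean (x axis) of 30 structured RNAs, all small but for Rn28s1 (y axis, asterisks mark the 4 selected transcripts), at 3 h (circles), 12 h (squares) and 72 h (triangles), with bars of 1 standard error from limma. The 3 h points of 8 of the 9 RNAs in the upper 2 blocks lie beyond 1.25, whereas the snoRNAs and scaRNAs have a median of 0.26.

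Another group was raised at 72 h. H19, an imprinted RNA abundant in fetal tissue and silenced after birth, read -4.35, -4.35 and -2.32 in sham, -4.36, -4.02 and -4.39 at 3 h, and -3.20, -3.35 and -1.45 at 12 h. At 72 h it read 0.81, 0.95 and 1.55. The 72 h arrays lay above all others, and 1 sham and 1 12 h array stood above the rest of their groups. The difference was 4.78 ± 0.60 at 72 h, and a second H19 probe differed by 4.31. With the slide as a block the 72 h difference was 2.95 and was not called.

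The Dlk1-Dio3 region on chromosome 12, also imprinted, carries the maternally expressed noncoding RNAs Meg3, Rian and Mirg and, at its far end, Dio3os. Rian read -1.65, -2.30 and -2.18 in sham and 1.70, -0.04 and -0.45 at 72 h. Mirg read -2.93, -3.27 and -3.28 in sham and 0.18, -1.32 and -1.82 at 72 h. Both were highest on the same 72 h array, and their 3 h and 12 h differences from sham were between -0.33 and 0.31. Their 72 h differences were 2.44 ± 0.46 and 2.17 ± 0.40.

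Dio3os, transcribed opposite the gene of the enzyme that inactivates thyroid hormone, read -0.63, -1.61 and -2.89 at 72 h against -5.02, -6.78 and -5.79 in sham, 1 of which was well above background. Its 3 h and 12 h arrays were at or below -5.19. The 3 arrays at 72 h were spread over more than 2 log2 units, and all stood above every other array. Its other probes did not move alike, since AY283181 differed from sham by 1.87 at 72 h and AY077459 by 0.06. Meg3 was not selected. Its brightest probe with a RefSeq noncoding accession differed by -1.15, -1.44 and 1.27 at 3, 12 and 72 h, and a brighter one, AK157178, by -1.0, -1.5 and 1.41. Another Meg3 probe differed by -1.38, -1.73 and 1.15. A further pair did not rise at 72 h, with -1.28, -1.82 and -0.53, and -1.02, -1.08 and -0.33, and both were called lower at 3 h and 12 h. No Meg3 probe was called against sham at 72 h.

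Dnm3os, the host of miR-199a and miR-214 and a transcript of mesenchyme, read -3.51, -3.97 and -3.86 in sham and -1.11, -2.52 and -2.65 at 72 h, a difference of 1.69 ± 0.40. Dleu2, the host of miR-16, read -2.86, -2.97 and -2.65 in sham, -1.16, -1.90 and -1.79 at 12 h and -1.33, -1.55 and -0.75 at 72 h. Its 12 h and 72 h arrays overlapped each other and lay above sham. Other Dleu2 probes, AK033078 and AK029956, differed from sham by 0.22 each at 72 h, against 1.61 for the chosen probe.

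U90926, the fourth member of the immune list, was dark until 72 h. It read -5.86, -6.08 and -6.05 in sham, -6.23, -5.92 and -5.18 at 3 h, and -5.38, -5.55 and -6.51 at 12 h. At 72 h it read -2.50, -2.79 and -0.73, at least 11.6-fold above sham. Bach2os, opposite the gene of the transcription factor Bach2, reached -3.11, -3.30 and -2.57 at 72 h, at least 5.85-fold. 5430425K12Rik reached -2.44, -3.85 and -3.31, at least 5.06-fold. At 3 h they differed from sham by 1.58, which was not called, and 2.75.

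Fibroblast markers were also higher at 72 h. The summed level of 6 such markers was 79.4 to 90.8 in sham, 54.6 to 69.8 on the arrays of 3 h and 12 h, and 203 to 413 at 72 h. Of the 6, 3 were called lower at 12 h and 4 higher at 72 h. The 72 h array with the highest fibroblast sum (413) was the one on which Rian, Mirg, Dio3os, Dnm3os and 5430425K12Rik were highest. It also had the highest sum of 6 fat cell markers, 175 against 5.8 on the lowest 72 h array. That lowest array also had the lowest 72 h fibroblast sum (203), and on it H19, Dleu2, Bach2os and U90926 were highest. H19 was lowest on the array with the sum of 413. Of 6 mesothelial markers, Wt1 (4.39) and Pdpn (2.57) were called higher at 72 h, and Wt1 was also highest on that first array (2.51, against 0.94 and 0.66). The summed level of the mesothelial list was 156 to 185 in sham, 230 to 256 at 3 h, 157 to 197 at 12 h and 112 to 151 at 72 h. The median difference of the 6 from sham went the other way at 3 h and 72 h. It was -1.04, -0.45 and 0.45 at 3, 12 and 72 h, so the sum does not describe the list as a whole. At these times 1, 1 and 2 of the 6 were called higher and 2, 2 and 0 lower. The part of these cells in the differences was not tested.

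The slide is a further limit at 72 h. On slide 2, which holds the 72 h arrays and 1 of 12 h, the 59 transcripts called between 72 h and 12 h all kept the direction of that difference against that 1 array. For H19 the difference was 2.55 there and 3.77 over all 12 h arrays, for Dio3os 3.48 and 4.81, for Rian 2.19 and 2.53, and for U90926 4.51 and 3.81. With the slide as a block, all 68 transcripts that lay 1.5 from sham at 72 h kept their sign, and 53 still lay 1.5 from it. Of the transcripts described here that were called at 72 h, 14 were still called with the block: Gm10872, F630028O10Rik, U90926, 5430425K12Rik, 1700071M16Rik, Hmga2-ps1, Marcksl1-ps4 and Gpr137b-ps among the higher, and Mir143hg, 1700003I22Rik, A730036I17Rik, Gm2061, Ppp1r12b and Smpx among the lower. The others were not, H19, Dio3os, Rian, Mirg, Dnm3os, Dleu2, Mirt1, Morrbid and 9230105E05Rik among them, and their differences with the block ran from 1.06 (Gm15987) to 3.6 (Bach2os) and from -1.45 (9530091C08Rik) to -4.0 (Gm8221).

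Among the lower transcripts, Mir143hg and Fendrr were called lower at 3 h and 12 h. Mir143hg (Carmn), a lncRNA of smooth muscle cells, read 2.19, 2.11 and 1.82 in sham, -0.81, 0.10 and -0.46 at 3 h, and -0.71, -0.29 and 0.60 at 12 h. At 72 h it read 0.87, 0.86 and 1.0. All injured arrays lay below all sham arrays, and the 72 h arrays above those of 3 h and 12 h. The differences were -2.43 ± 0.32, -2.17 ± 0.32 and -1.13 ± 0.32.

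Fendrr, transcribed next to Foxf1 and needed for the mesoderm of the body wall and heart, followed the same course. It read 2.06, 1.69 and 1.60 in sham and 0.33, 0.35 and -0.22 at 3 h. Its 12 h arrays read 0.11, 0.32 and 0.63 and its 72 h arrays 0.81, 1.20 and 0.87. A second Fendrr probe differed from sham by -1.43, -1.30 and -0.63, and the chosen one by -1.63, -1.43 and -0.83. Foxf1 itself differed by 0.16, -0.17 and -0.42 and was not called.

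The summed level of 6 smooth muscle markers was 240 to 274 on the sham arrays, 124 to 152 at 3 h, 77.3 to 123 at 12 h and 82.5 to 113 at 72 h. At 3, 12 and 72 h, 2, 6 and 6 of them were called lower. Whether these transcripts and markers share a source was not tested.

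A pair of lncRNAs on chromosome 11, 2810433D01Rik and Gm11627, with probes 43373 bases apart, were lower at 3 h and 12 h. 2810433D01Rik read -3.42, -3.49 and -3.53 in sham and -6.22, -5.85 and -6.76 at 3 h, at least 3.45-fold lower. Gm11627 read -1.49, -1.63 and -1.75 in sham, -3.47, -3.11 and -3.28 at 3 h and -4.03, -4.27 and -3.89 at 12 h. At 72 h the first was back at -3.41, -3.38 and -3.72, overlapping sham, and the second at -1.94, -2.87 and -2.95, still below it. 9530091C08Rik went from -1.64, -1.90 and -2.12 in sham to -5.07, -4.99 and -5.48 at 3 h, where 2 of its 3 arrays were above background.

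Snhg14, the imprinted host of a large cluster of snoRNAs next to Snrpn, read -0.38, -0.57 and -0.77 in sham and -1.99, -1.80 and -2.55 at 3 h, and stayed below sham on all injured arrays. It was the one snoRNA host selected. Of 20 such hosts on the array, Snhg14 and Snhg11 (-1.41 and -1.85) were called lower at 3 h and 12 h, 0 at 72 h and 0 higher, with medians of 0.16, -0.01 and -0.09. Kantr, next to Kdm5c on the X chromosome, read -0.68, -1.07 and -1.02 in sham and -2.61, -2.55 and -2.27 at 3 h. Cyp2d37-ps, a cytochrome P450 pseudogene, read -0.11, -0.48 and -0.36 in sham and -2.82, -2.43 and -2.60 at 3 h, and its later arrays lay between.

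Miat, a lncRNA kept in the nucleus, was lower at 12 h and not at 72 h. It read -3.54, -3.52 and -3.44 in sham, -6.44, -5.66 and -5.70 at 12 h, at least 4.07-fold lower, and -1.58, -2.87 and -3.28 at 72 h. A second probe for the same Miat accession differed from sham by -0.08, -0.65 and -0.31, so the 2 probes gave unlike pictures.

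Other transcripts fell late. 1700003I22Rik read 0.44, 0.80 and 0.58 in sham, 0.33, 0.53 and 0.23 at 3 h, and -0.64, -0.55 and -1.06 at 12 h. By 72 h it was down to -2.24, -1.80 and -2.85. The 9130227L01Rik probe, 48600 bases away on chromosome 1, read -4.79, -3.92 and -2.99 in sham and -6.45, -6.28 and -6.06 at 72 h, at least 3.4-fold lower. Gm8221, a pseudogene, read -0.88, -0.82 and -0.79 in sham and -4.82, -4.80 and -2.46 at 72 h, with 1 array well above the other 2.

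9230105E05Rik fell to background. It went from -3.42, -3.12 and -3.82 in sham to -7.08, -7.82 and -5.74 at 72 h, at least 4.63-fold. It was already below sham on all arrays of 3 h and 12 h. 9130221F21Rik read -3.67, -3.43 and -5.03 in sham, -4.05, -4.04 and -4.01 at 3 h, and -7.68, -7.73 and -6.82 at 72 h, at least 3.08-fold lower. The summed level of 11 epithelial markers was 1139 to 1208 in sham and 1253 to 1413 at 3 h. It was 964 to 1186 at 12 h and 562 to 757 at 72 h. Of these genes, 0, 2 and 3 were called lower at 3, 12 and 72 h. Whether these transcripts are epithelial was not tested.

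Pseudogenes and noncoding variants need the values of the genes they resemble. Marcksl1-ps4 read -0.54, -0.53 and -0.08 in sham and 3.49, 2.70 and 3.17 at 12 h, a difference of 3.51, and 2 probes of the coding gene Marcksl1 differed by 3.83 and 3.36 at that time. Tubb2a-ps2 differed from sham by 1.57 at 3 h, and Tubb2a by 1.89. Gpr137b-ps differed by 1.53 at 72 h, and Gpr137b by 1.60 and 2.17. Hmga2-ps1 went the other way from Hmga2, with 2.72 against -0.99 and -1.07 at 72 h. Signal of the parent gene in a pseudogene probe was not tested.

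Mcpt-ps1, a pseudogene of the mast cell proteases, read -0.17, -0.32 and -0.62 in sham, 0.96, 2.42 and 1.15 at 3 h, and 3.58, 2.90 and 3.12 at 12 h. Its 72 h arrays read 2.61, 1.67 and 2.30. All injured arrays lay above sham and all 12 h arrays above the rest. Cma1, its nearest coding gene and a chymase of mast cells, differed by 2.42, 0.71 and 3.16 and was not called at 12 h.

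Of the 7 noncoding variants of coding genes, Ncf1, a subunit of the phagocyte oxidase, was not above background on any sham array and was at least 2.25-fold higher at 12 h, when its coding probes differed by 2.92 and 2.76. Smpx, a small protein of muscle, was not above background at 72 h and at least 5.5-fold lower there, and its coding probes differed by -2.73 and -2.26. Bmp1, the procollagen C-proteinase, differed by 2.80 at 72 h, where its 3 arrays read 2.54, 1.29 and 0.56, and its coding probes by 2.0 and 0.68. Ppp1r12b, a myosin phosphatase subunit, differed by -1.51 at 3 h against -0.34 for its coding probe, and a pair of probes for other Ppp1r12b transcripts, neither above background at 3 h, by -1.37 and -2.92. In all, 35 of the transcripts had other probes of the same name on the array. Of 34 such probes that were detected, covering 24 transcripts, 33 had the same sign at the time of the largest difference and 16 passed 1.5.

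Differences between the injured groups were compared next. These contrasts were not in the rule but use the same arrays, so the counts are given beside the share of all probes called and nothing is read from them as support. From 3 h to 12 h, 21 transcripts were called higher and 12 lower, where 1.82% and 1.45% of all probes were. From 12 h to 72 h, 35 were called higher and 24 lower, where 4.24% and 2.76% of all probes were, and from 3 h to 72 h 42 and 31, where 6.07% and 4.96% were. By fitted values, which include groups at background, the largest called were 4933412O06Rik, 1700071M16Rik and Mospd4 on the way up from 3 h to 12 h, and Vaultrc5, 2010010A06Rik and 9130221F21Rik on the way down. From 12 h to 72 h, U90926, Dio3os and H19 gained most, and 9030619P08Rik, 4933412O06Rik and Gm8221 lost most. Gm19619 was bright at 3 h (-4.16, -4.73 and -4.14) and dark at 72 h (-7.99, -7.77 and -7.93).

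Leaving out the first 3 h array, the first 12 h array or the third 12 h array brought the count between 12 h and 3 h from 33 to 21, 16 and 19. No other count against sham or between times moved by more than 1.5 times when 1 array was left out.

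The nearest coding genes were chosen by probe position and not by their values, so their differences from sham could be tested, although they were measured on the same arrays. Within 100000 bases, 104 of the transcripts had such a neighbour, 103 different genes at a median of 22878.5 bases. At 3 h, 10 of the 103 were called higher and 5 lower, at 12 h 14 and 10, and at 72 h 16 and 9, beside the shares of all probes of 2.84% and 4.61%, 3.71% and 5.46%, and 4.08% and 4.25%. With the slide as a block, 11 in place of 25 were called at 72 h. Their median differences were 0.02, 0.09 and -0.03. At the time of the transcript's largest difference, 14 of 51 neighbours of higher transcripts were called higher and 0 lower, and 9 of 53 neighbours of lower transcripts were called lower and 1 higher. The other 37 and 43 were not called. Fzd2, nearest to both 2810433D01Rik and Gm11627, is counted for each. The times and directions come from the differences that chose the transcripts. No share over all probes was computed for these counts, and nothing is read from them as support. Neighbours were read by the brightest probe of each gene, whereas the shares above cover all probes, dim ones included. A transcript and its neighbour can be read through shared or overlapping RNA, which these probes do not resolve.

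**Figure D5:**
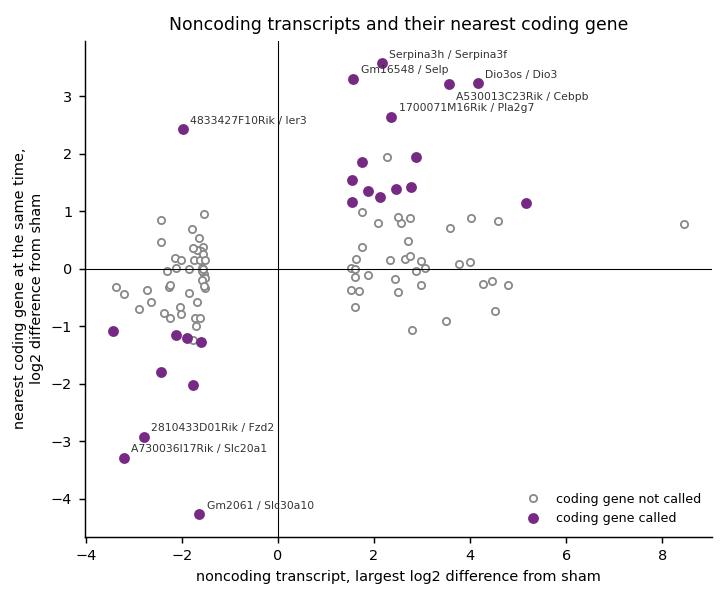
Each point is 1 of 104 noncoding transcripts, placed by its largest log2 difference from sham (x axis) and by the difference of the nearest coding gene at the same time (y axis); filled points are coding genes called by limma. Of the filled points, 14 lie at the upper right and 9 at the lower left, and 1 (4833427F10Rik with Ier3) lies at the upper left.

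Among the neighbours called, Cebpb, a transcription factor of granulocytes and inflammation, lies 6822 bases from A530013C23Rik. Its level went from 1.56 ± 0.19 (SD, n = 3) in sham to 4.78 ± 0.28 at 12 h, which is 3.22 ± 0.23 higher (limma adjusted p = 1.9e-05). A530013C23Rik read -7.88, -7.40 and -6.56 in sham and -3.16, -4.54 and -3.47 at 12 h, at least 3.53-fold higher. Dio3, 5186 bases from Dio3os and on the other strand, went from -5.41 ± 0.31 in sham, where 1 array was well above background, to -2.17 ± 1.47 at 72 h (3.23 ± 0.56, limma adjusted p = 0.0032).

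Fzd2, a Wnt receptor near both chromosome 11 transcripts, went from -0.38 ± 0.09 to -3.30 ± 0.16 at 3 h (limma adjusted p = 0.00013). Like 2810433D01Rik it was no longer below sham at 72 h, where it differed by 0.71. Slc20a1, a phosphate transporter 23674 bases from A730036I17Rik, went from 5.52 ± 0.27 to 2.24 ± 0.18 at 72 h (limma adjusted p = 1.2e-05), and A730036I17Rik from -5.13, -4.03 and -4.73 to -8.06, -7.81 and -7.66. Slc30a10, a manganese exporter near Gm2061, differed by -4.26 ± 0.51 at 72 h (limma adjusted p = 0.00048).

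Selp, the P-selectin of activated endothelium, lies 752 bases from Gm16548 on the other strand and differed by 3.31 ± 0.26 at 72 h (limma adjusted p = 4.6e-05). Gm16548 itself read -7.84, -5.03 and -5.42 in sham and -4.54, -4.30 and -4.74 at 72 h, and was one of the 4 transcripts that changed sign with normexp. Ier3, an immediate early gene, moved against its neighbour 4833427F10Rik, by 2.43 ± 0.25 (limma adjusted p = 0.00022) where the noncoding transcript differed by -1.98. Vsig4, a macrophage receptor 4250 bases from F630028O10Rik, was not above background in sham, 3 h or 12 h.

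Of the lists of well known noncoding RNAs, the nuclear and general one held 30 genes on the array, of which 4, 1 and 3 were called higher and 2, 3 and 1 lower at 3, 12 and 72 h. The higher ones were Rn7sk, Rpph1, Rmrp and Gm15645 at 3 h, Rpph1 at 12 h, and H19, Rian and Mirg at 72 h. The lower ones were Fendrr and Hoxa11os at 3 h, Fendrr, Miat and Firre at 12 h, and Nron at 72 h, though Nron was not above background on any array. Xist, Neat1, Tug1 and Pvt1 were among those not called at any time. The 15 microRNA host transcripts had 1, 3 and 4 called higher and 1, 2 and 1 lower. That list, drawn up by name, holds Mirt1 and Mirt2, which span no hairpin here, and without them Dleu2 at 12 h and Dleu2 and Dnm3os at 72 h were the ones called higher. The lower ones were Mir143hg at all 3 times and Mir99ahg at 12 h. The medians of the first list were -0.04, -0.21 and -0.13 and of the second -0.03, 0.19 and 0.30, against 0.04, -0.05 and -0.16 over all probes.

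A promoter window of 300 bases, 250 before the start and 50 after it, was given for 89 of the transcripts in RefSeq (GRCm38.p6). The AP-1 motif TGANTCA was in 6 of these windows, 5 of higher transcripts and 1 of a lower one. Those of Mirt1 and Morrbid are shown as examples, with the motif in capitals. Its part in their rise was not tested.
5830416P10Rik (Mirt1), chr19:53464747-53465046, minus strand: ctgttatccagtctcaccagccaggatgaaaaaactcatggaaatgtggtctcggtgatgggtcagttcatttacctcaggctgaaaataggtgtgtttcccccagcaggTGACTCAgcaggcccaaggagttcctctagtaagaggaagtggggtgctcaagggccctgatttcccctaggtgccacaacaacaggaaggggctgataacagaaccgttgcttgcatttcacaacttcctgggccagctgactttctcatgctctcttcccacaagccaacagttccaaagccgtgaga
Gm14005 (Morrbid), chr2:128429302-128429601, minus strand: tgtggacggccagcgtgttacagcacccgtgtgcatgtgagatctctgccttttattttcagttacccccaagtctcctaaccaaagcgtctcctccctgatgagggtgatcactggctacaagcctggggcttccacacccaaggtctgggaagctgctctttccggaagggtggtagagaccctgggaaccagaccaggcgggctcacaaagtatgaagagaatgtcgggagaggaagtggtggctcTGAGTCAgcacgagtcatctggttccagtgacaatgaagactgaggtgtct

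Over all 89 windows the AP-1 motif was in 6.74%, against 7.93% of 27025 promoters. The STAT motif TTCNNNGAA was in 14.6% against 8.47%, the heat shock motif GAANNTTC in 5.62% against 7.95%, the E-box CACGTG in 8.99% against 7.24%, the CRE TGACGTCA in 1.12% against 1.88%, and the NF-kB motif in 8.99% against 5.66%. Both strands were searched and matches of different motifs may overlap. A match says only that these letters are present.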

How the data were processed

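Total RNA of 12 mouse ceca was labelled with Cy3 and hybridised to Agilent SurePrint G3 Mouse arrays. The authors deposited Feature Extraction output, whose processed intensity per spot is linear with background removed, and a table of log2 values centred per probe (column medians from -0.18 to 0.13), used as an alternative. Per the file headers, probe positions are those of mm9.

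Groups were taken from the sample titles. Outlier spots were left out (1 transcript, A930003A15Rik, lacked a value on the first 72 h array), spots of a probe were averaged, and log2 intensities were set against each array's 75th percentile over 59305 spots other than controls. limma 3.58.1 in R 4.3.3 fitted 4 group means over 56605 probes, with Python 3.11.15 and pandas for tables. The fit was tested on simulated data. No counts exist for arrays, and 3 arrays per group limit the precision.

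The transcripts, gene lists and tests were chosen with earlier results of these data known. Named were, per time, the 5 largest rises and falls above background, the 5 largest lower bounds, transcripts on 4 lists of known RNAs, those at the edge of 1.5, the nearest coding genes, and the 3 largest called differences between times. A530013C23Rik, AU019990, Kantr, Gm16548, A730036I17Rik, Gm2061, 4833427F10Rik, the small RNAs, the parent genes and the names in lists without values were added once their values had been seen. Alternatives were other scalings, background correction, filters, slide or replicate blocks, other tests and each array left out.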

Additional observations from a re-analysis of the deposited data

Results flagged for a closer look

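Some transcripts lay above sham at one time and below it at another, with all 3 arrays on either side of all sham arrays, and limma called the difference between these times. From 3 h to 72 h, the fitted difference was 5.37 in Dio3os, 3.25 in Bmp1, 2.63 in D5Ertd605e, 2.28 in Miat, -2.68 in 9130209A04Rik, -2.10 in Gsdmcl2 and -2.04 in Tubb2a-ps2. From 12 h to 72 h, it was 3.36 in Miat, 2.5 in Mirg, 2.24 in D5Ertd605e, -2.63 in 9130209A04Rik, -1.47 in Gsdmcl2 and -1.26 in Tubb2a-ps2. Some of these groups were at background and allow only a bound. Dio3os was above background on 0 of the 3 h arrays and 1 sham array, so that its place below sham at 3 h was not measured, and it was at least 11.8-fold higher at 72 h than at 3 h. Miat was above background on 0 of the 12 h arrays and was at least 7.70-fold higher at 72 h. 9130209A04Rik was above background on 0 of the 72 h arrays, at least 2.62-fold lower than at 3 h and at least 2.53-fold lower than at 12 h.

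D5Ertd605e was above background on 1 array each at 3 h and 12 h, and read -4.45, -4.35 and -4.37 in sham, -5.58, -7.10 and -5.06 at 3 h, and -4.80, -5.89 and -5.88 at 12 h. Its 72 h arrays read -2.61, -3.35 and -3.88. Gsdmcl2, a transcribed pseudogene of the gasdermin C family, read -4.09, -4.03 and -3.89 in sham, -2.27, -2.22 and -2.30 at 3 h and -4.44, -4.44 and -4.21 at 72 h. The 72 h arrays lay on slide 2, and the part of the slide in these differences was not tested beyond the block.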

How the results depend on the processing

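The selection gave 132 transcripts, 20 with normexp, 286 at a minimum difference of 1, 78 at 2 and 59 with detection on all 12 arrays, and 123 to 153 when 1 array was left out. With normexp the calls were 18, 18 and 23 against sham at 3, 12 and 72 h, 9 from 3 h to 12 h, 14 from 12 h to 72 h and 18 from 3 h to 72 h, and 15 neighbours were called at 72 h. With the slide as a block they were 18 at 72 h, 19, 16 and 19 between times and 11 neighbours at 72 h. The methods' paired t-test called 0 after adjustment, with unadjusted p below 0.05 for 53, 87 and 61 transcripts at 3, 12 and 72 h. Each pair fitted alone gave 20 from 3 h to 12 h. Adjusted p alone called 35, 41 and 47 neighbours, and 25000 bases left 7, 12 and 14.

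Leaving out 1 array gave 56 to 73, 76 to 90 and 62 to 78 calls against sham, 16 to 31, 43 to 61 and 64 to 76 between times, and 13 to 17, 24 to 32 and 20 to 25 neighbours. Replicate numbers did not pair the arrays (r from -0.40 to 0.26 over 18 same-number pairs, 4 of 12 arrays closest to their own number). With the replicate block the calls were 66, 85 and 70 against sham and 27, 54 and 71 between times. Of 259 alternative counts, 224 stayed within 1.5 times. Of 2490 alternative values for 96 named genes, 0 were reversed, 119 lost their call, 62 of them in the paired t-test, and 23 gained one. Dnm3os at 72 h lost its call without the second sham array (1.60), Gm19619 at 3 h without the first (2.33) or second (2.28), and 4930597A21Rik at 72 h gained one without the first or the third 3 h array (-1.76). The percentile over averaged probes was chosen after seeing the data.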

Other observations

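Igf2, which is imprinted together with H19 and is also known from fetal growth, did not share its rise at 72 h. The brighter Igf2 probe differed from sham by -0.10, -0.72 and -0.94 at 3, 12 and 72 h, where H19 differed by -0.58, 1.01 and 4.78. Of the coding genes of the Dlk1-Dio3 region, Dio3 was called higher at 72 h (3.23) like the noncoding Dio3os, Rian and Mirg. The Dlk1 probes differed by -0.09 and 0.88, and the Rtl1 probe was not well above background on any array. These genes were chosen once the values of H19, Rian and Mirg had been seen.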
